A study of Saccharomyces cerevisiae with 4 samples.

Results

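The genes described here carry sulfur into the yeast cell and turn it into cysteine, methionine derivatives and glutathione. They are CYS3, CYS4, STR3, SAM1, SAM2, GSH1, SUL1, SUL2 and MUP1, which were chosen by name and make up 9 of the 6002 protein-coding genes with a nuclear promoter in the R64 annotation. The peaks described are those whose interval overlaps the 1000 bp upstream of the coding start of one of these genes, called the promoter below. There were 35 of them among 6681 nuclear peaks, with 5 of 920 in Cbf1 replicate 1, 9 of 1566 in Cbf1 replicate 2, 10 of 2005 in Pho4 replicate 1 and 11 of 2190 in Pho4 replicate 2.

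Cbf1 was tagged in strain W303 Z1497 (CBF1::9myc::TRP1) and Pho4 in strain W303 Z1441 (PHO4::9myc::TRP1) of Saccharomyces cerevisiae, with 2 libraries each. Both were precipitated with the antibody ab9E10, and binding was read by ChIP-nexus, in which an exonuclease trims the precipitated DNA back to the crosslinked protein. Per the labels, all 4 libraries came from cells grown in rich medium at 25 °C and then held for 2 h in phosphate-free medium with 2% glucose. Phosphate-rich cells, an untagged strain and input DNA were not analysed here, and nothing in the labels says that the libraries of a factor came from separate cultures, so the spread between them may be technical.

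Cbf1 is a basic helix-loop-helix protein that binds the E-box CACGTG and, with Met4, Met28, Met31 and Met32, activates the genes of sulfur metabolism. Pho4 is a protein of the same family that binds the same core and activates the genes of phosphate uptake and storage when phosphate is short. The preference of the factors is known to differ at the base beside the core, where a T directly 5′ of CACGTG (a T flank, counted on each strand) disfavours Pho4. Sulfate enters through the permeases Sul1 and Sul2 and methionine through Mup1. Cys4 and Cys3 carry homocysteine through cystathionine to cysteine, and Str3 works in the opposite direction, from cystathionine to homocysteine. Sam1 and Sam2 make S-adenosylmethionine, and Gsh1 takes the first step of glutathione synthesis.

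The sequences around the summits are shown because 5 of these promoters hold CACGTG and 4 do not, and each is given 5′ to 3′ on the strand of its gene from the R64 assembly of strain S288C. Capitals mark CACGTG, the Met31 and Met32 motif AAACTGTG or the Gcn4 motif TGACTC, on either strand. The windows of the first 5 genes are centred on the E-box nearest the summits, at chrI:130535-130635 (plus strand) for CYS3, chrVII:798090-798190 (plus) for CYS4, chrIV:1454734-1454834 (minus) for SAM2, chrX:236670-236770 (minus) for GSH1 and chrXII:323162-323262 (plus) for SUL2. The promoters of STR3, MUP1 and SUL1 hold no CACGTG, and their windows are centred on the mean Pho4 summit, at chrVII:156306-156406 (minus), chrVII:598876-598976 (plus) and chrII:788793-788893 (plus).
CYS3: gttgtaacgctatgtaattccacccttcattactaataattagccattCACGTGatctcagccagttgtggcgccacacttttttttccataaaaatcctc
CYS4: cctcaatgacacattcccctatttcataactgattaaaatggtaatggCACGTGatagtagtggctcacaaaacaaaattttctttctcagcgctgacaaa
SAM2: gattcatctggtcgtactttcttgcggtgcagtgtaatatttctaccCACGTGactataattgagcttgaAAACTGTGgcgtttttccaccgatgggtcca
GSH1: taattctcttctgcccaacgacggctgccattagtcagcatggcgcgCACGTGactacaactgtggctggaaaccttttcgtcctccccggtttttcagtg
SUL2: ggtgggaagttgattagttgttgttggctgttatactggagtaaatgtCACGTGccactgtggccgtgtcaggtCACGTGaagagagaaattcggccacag
STR3: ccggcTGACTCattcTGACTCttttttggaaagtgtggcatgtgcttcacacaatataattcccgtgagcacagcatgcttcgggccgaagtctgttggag
MUP1: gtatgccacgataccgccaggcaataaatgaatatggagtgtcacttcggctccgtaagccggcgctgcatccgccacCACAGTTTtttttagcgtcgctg
SUL1: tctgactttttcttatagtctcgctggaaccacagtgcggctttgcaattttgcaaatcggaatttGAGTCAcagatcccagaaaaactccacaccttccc

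The lists differ in how far they run along the genome, with chromosomes in the text order of their names. Cbf1 replicate 1 ends on chromosome VII at 856779, so it reaches 6 of the 9 genes and leaves out GSH1, SAM1 and SUL2, which the other 3 lists reach. Cbf1 values for those 3 genes therefore rest on 1 list. Read totals are not part of the lists. The summit height and local background implied by the authors' fold and p columns stand in for depth. They assume that the fold is height over background, each with 1 added, and that p is a Poisson tail, since the caller's settings and the source of the background are not given in the sources used here. At the highest promoter peak of each gene the height ranged from 39 to 1486 reads in the Cbf1 lists and from 29 to 336 reads in the Pho4 lists. The local background at those peaks ranged from 22.6 to 68.8 reads in Cbf1 replicate 1 and 17.9 to 75.4 in Cbf1 replicate 2. It ranged from 17.6 to 34.8 reads in Pho4 replicate 1 and 8.32 to 17.5 in Pho4 replicate 2. Nothing puts the folds of separate lists on 1 scale, so they are ranked within a list and not compared between lists. The fold percentile below is the percentage of nuclear peaks in the list whose fold is no higher.

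Cbf1 peaks lay over the promoters of 5 of 6 genes in replicate 1 and 7 of 9 in replicate 2, while Pho4 peaks lay over 9 of 9 in both lists. Over all protein-coding genes that a list reaches, the share with a promoter peak was 31% in Cbf1 replicate 1, 28.5% in Cbf1 replicate 2, 41.5% in Pho4 replicate 1 and 37.8% in Pho4 replicate 2. Both Cbf1 lists had a peak over 4 of the 6 genes they both reach (CYS3, CYS4, SAM2 and MUP1), against 24.1% of all such genes, and both Pho4 lists had one over 9 of 9, against 33.6%. All 4 lists had a peak over those same 4 of 6 genes, against 17.1% of all genes. MUP1 is among them through Cbf1 peaks at different places, with summits 315 and 1061 bp upstream. When the replicate summits had to lie at most 50 bp apart, both Cbf1 lists had a peak over 3 genes. No test is attached to these counts, since the genes were chosen by name with earlier results known.

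**Figure D1:**
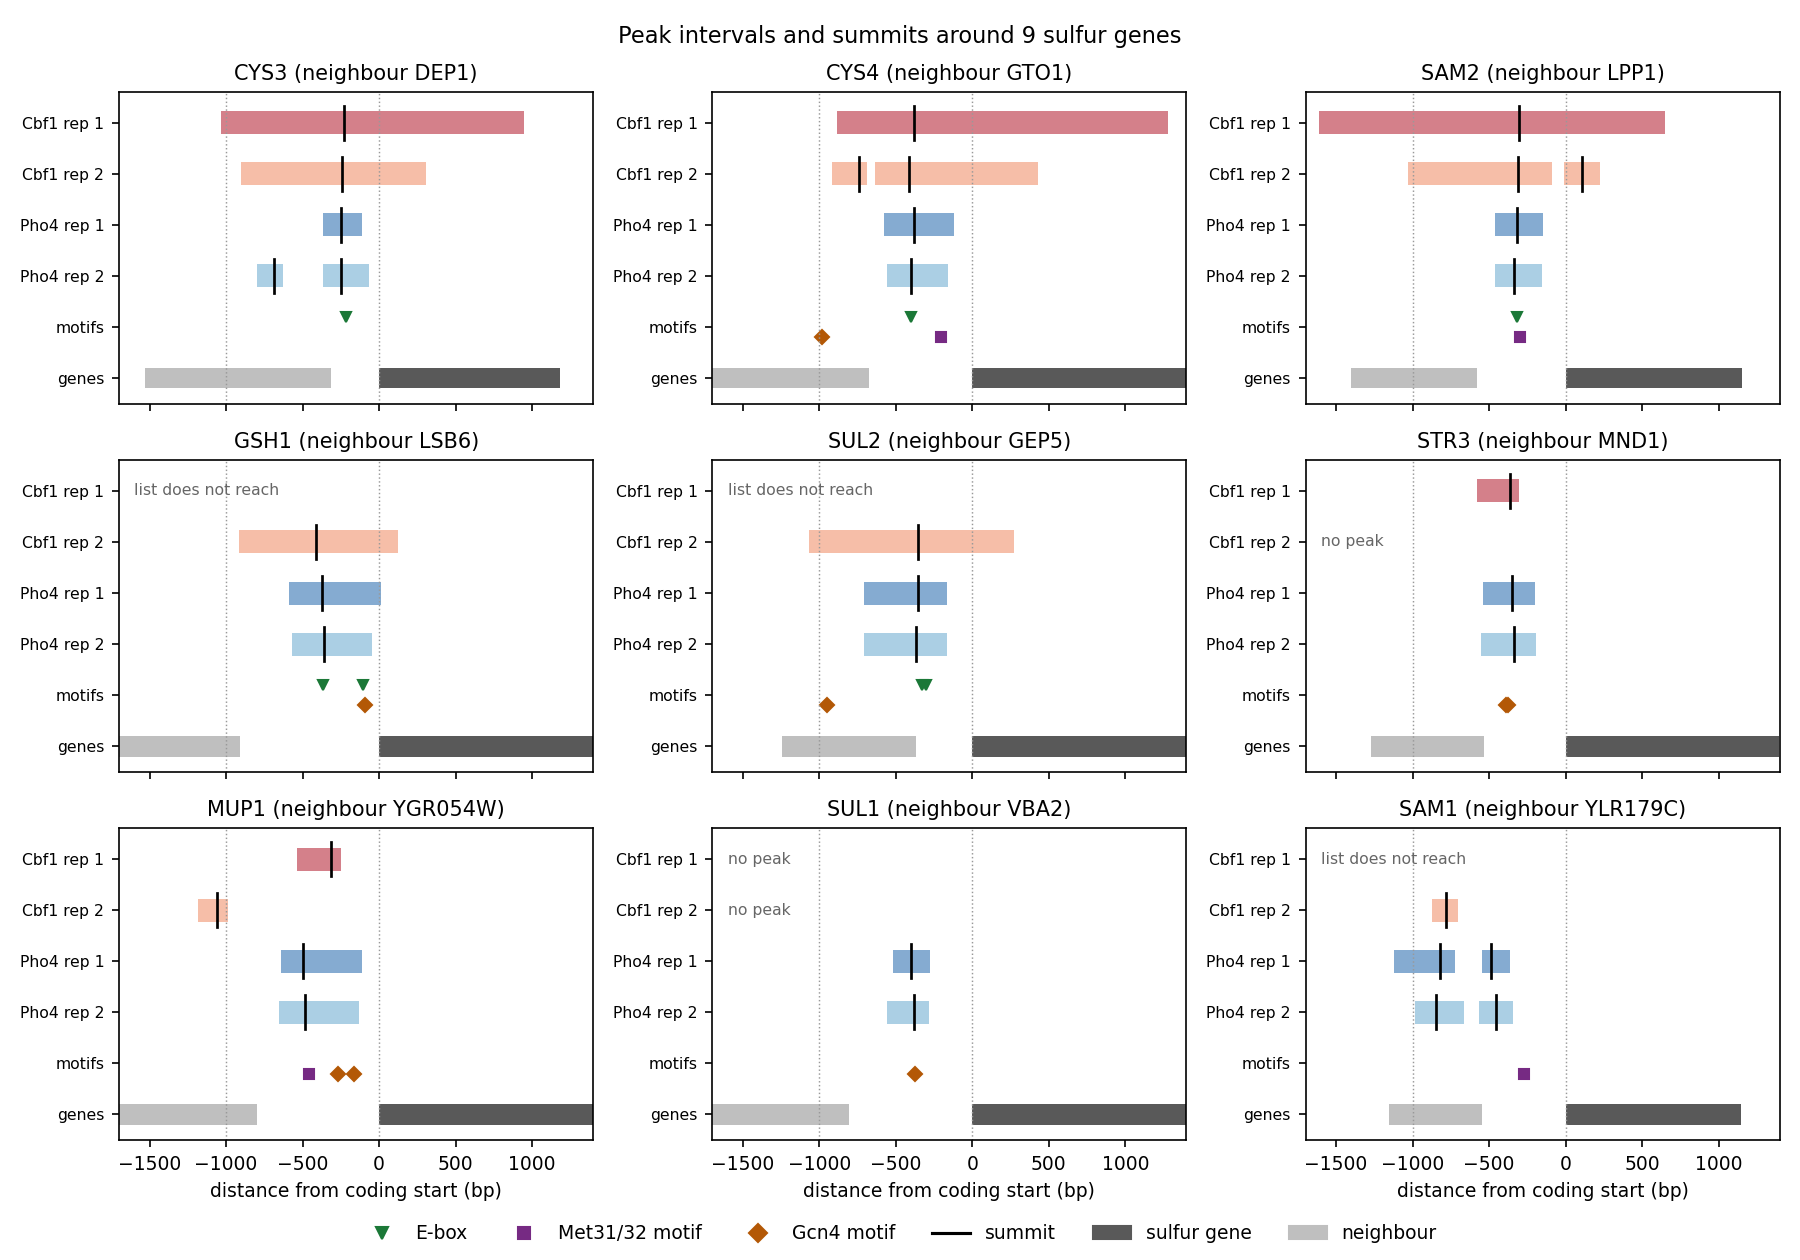
Peak intervals (bars) and summits (black lines) in the 4 libraries around the 9 genes, with distance from the coding start in bp on the horizontal axis, negative upstream, and dotted lines at the coding start and at 1000 bp upstream. Markers show E-boxes, Met31/32 motifs and Gcn4 motifs, and grey bars show the genes, cut at the panel edges. The Cbf1 intervals at CYS3, CYS4, SAM2, GSH1 and SUL2 are 937 to 2261 bp wide, while the Pho4 intervals over the same sites are 257 to 601 bp wide.

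Cbf1 ranked higher over the promoters with CACGTG than over those without it. The 5 genes with it, CYS3, CYS4, SAM2, GSH1 and SUL2, had a Cbf1 peak in every list that reaches them, at percentiles of 81.6 to 92.9 in replicate 1 and 85.6 to 97.5 in replicate 2. Among the 4 genes without it, Cbf1 had a peak at 2 of 3 in replicate 1, at percentiles of 6.74 and 34.5, and at 2 of 4 in replicate 2, at 19.5 and 47.4. Both of those replicate 2 peaks, at SAM1 and MUP1, lay wholly inside a neighbouring gene. The 2 sets did not overlap in either Cbf1 list. In the Pho4 lists they did overlap, since the genes with CACGTG had percentiles of 63.8 to 92.9 in replicate 1 and 26.3 to 93.6 in replicate 2, and those without had 25.8 to 93.3 and 5.16 to 92.3. Promoters with CACGTG also had a peak more often, and ranked higher, over the whole annotation. A Cbf1 peak lay over 73.7% and 78.4% of them in replicates 1 and 2, against 25.9% and 22.3% of promoters without CACGTG. For Pho4 the shares were 82.7% and 81.9%, against 36.4% and 32.5%. The median percentile of the highest Cbf1 peak was 90.8 and 89.9 with CACGTG and 60.1 and 55.2 without. A peak in the upper 15% of its list by fold lay over 50.4% and 47.6% of all promoters with CACGTG in Cbf1 replicates 1 and 2, and over 40.2% and 37.2% of them in Pho4 replicates 1 and 2. Of the genes here with CACGTG, 2 of 3 and 5 of 5 had such a peak in the Cbf1 lists, and 3 of 5 and 4 of 5 in the Pho4 lists. Over all promoters without CACGTG the shares were 4.15% and 2.26% in the Cbf1 lists and 4.53% and 3.36% in the Pho4 lists, and of the genes here without it, 0 of 3 and 0 of 4 had such a peak in the Cbf1 lists and 1 of 4 in each Pho4 list. In total such a peak lay over 2 of 6 genes in Cbf1 replicate 1, 5 of 9 in Cbf1 replicate 2, 4 of 9 in Pho4 replicate 1 and 5 of 9 in Pho4 replicate 2, against 9.05%, 7.33%, 8.48% and 7.01% of all genes. The level of 15% was chosen after the values were seen.

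**Figure D2:**
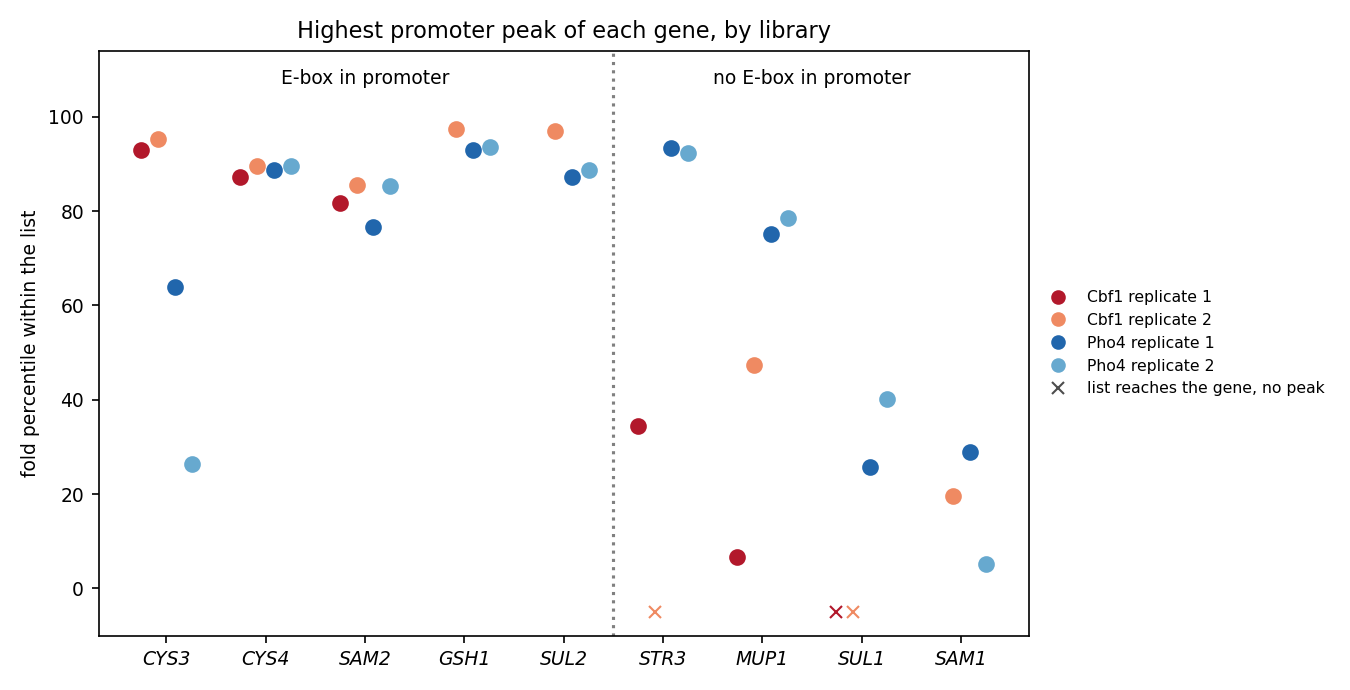
Fold percentile within its list (vertical axis) of the highest promoter peak of each gene, with Cbf1 libraries in red shades and Pho4 libraries in blue shades, and crosses below 0 for a gene that a list reaches without a peak. Left of the dotted line, genes with an E-box in the promoter have Cbf1 percentiles of 81.6 to 97.5, and right of it STR3 has a Cbf1 percentile of 34.5 in replicate 1, no Cbf1 peak in replicate 2, and Pho4 percentiles of 93.3 and 92.3.

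Sulfate uptake was covered by a pair of permease genes that differed widely. At SUL2 (YLR092W, chromosome XII, 323544 to 326225, plus strand) the Cbf1 replicate 2 summit lay 356 bp upstream with an authors' fold of 19.5 and ranked 47 of 1566. The Pho4 summits lay 357 and 366 bp upstream, with folds of 7.94 and 10.1, and ranked 255 of 2005 and 246 of 2190. These were high peaks in all 3 lists that reach the gene. The promoter held a pair of E-boxes, centred 331.5 and 305.5 bp upstream, the first with a T flank on 1 strand and the second on both. The summits lay 24.5 bp from the first site for Cbf1 and 25.5 and 34.5 bp from it for Pho4, on the side away from the second. The coding end of the neighbouring gene GEP5 lies 365 bp upstream of SUL2, so the summits stood at the boundary of GEP5 and the intergenic sequence.

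At SUL1 (YBR294W, chromosome II, 789235 to 791814, plus strand), the other sulfate permease, neither Cbf1 list had a peak. Pho4 had a low peak in both lists, 404 and 380 bp upstream, with folds of 2.36 and 3.22 and percentiles of 25.8 and 40.1. The implied heights were 43 and 29 reads over local backgrounds of 17.6 and 8.32 reads. The promoter held neither CACGTG nor its first 5 bases CACGT, and a TGACTC lay 30.5 and 6.5 bp from the Pho4 summits. That a list has no peak here means that nothing passed the authors' threshold at its depth.

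MUP1 (YGR055W, chromosome VII, 599417 to 601141, plus strand) encodes the high-affinity methionine permease. Its Cbf1 peaks were low and lay at different places, with a summit 315 bp upstream in replicate 1 (fold 1.71, percentile 6.74) and 1061 bp upstream in replicate 2 (fold 2.63, percentile 47.4). The replicate 2 interval lay wholly inside the neighbouring gene YGR054W and met the promoter only at its edge. The Pho4 peaks were of middle to high rank and close together, with summits 498 and 485 bp upstream, folds of 4.97 and 6.46 and percentiles of 75.1 and 78.5. There was no CACGTG or CACGT in the promoter. The motif AAACTGTG lay 38.5 and 25.5 bp from the Pho4 summits, and among all Pho4 summits without a nearby CACGTG it lay within 50 bp of 0.62% and 0.649%.

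CYS3 (YAL012W, chromosome I, 130799 to 131983, plus strand), which makes cysteine from cystathionine, was a high Cbf1 peak and a middle to low Pho4 peak. The Cbf1 summits lay 230 and 241 bp upstream, with folds of 6.96 and 16.7, and ranked 66 of 920 and 75 of 1566. The Pho4 summits lay 247 and 248 bp upstream, with folds of 3.90 and 2.74, and ranked 726 of 2005 and 1615 of 2190. The only E-box of the promoter, centred 213.5 bp upstream, has a T flank on both strands. All 4 summits lay on its upstream side, 16.5 and 27.5 bp away for Cbf1 and 33.5 and 34.5 bp away for Pho4. Among promoter E-boxes of the genome with T on both strands, 68.6% and 74.6% had a summit within 50 bp in the Cbf1 lists and 26.8% and 34.1% in the Pho4 lists. The intergenic gap to DEP1 is 311 bp and holds all 4 of these summits.

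CYS4 (YGR155W, chromosome VII, 798543 to 800066, plus strand), which makes cystathionine from homocysteine and serine, was high for both factors. The Cbf1 summits lay 379 and 414 bp upstream, with folds of 4.68 and 9.66 and percentiles of 87.2 and 89.7. The Pho4 summits lay 380 and 403 bp upstream, with folds of 8.54 and 10.4 and percentiles of 88.6 and 89.5. The factors overlapped in percentile. The single E-box, centred 402.5 bp upstream, has a T flank on 1 strand and lay 23.5 and 11.5 bp from the Cbf1 summits and 22.5 and 0.5 bp from the Pho4 summits. It is also the only site of these genes in the RYAAT composite, a longer element known for joint binding of Cbf1 with Met28 and Met4, which occurs in 18 of 6002 promoters or 0.3%. CYS4 is divergent from GTO1, a glutathione transferase gene, and the summits lay 261 to 296 bp upstream of the coding start of GTO1, so the peaks cannot be assigned to 1 of the pair.

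STR3 (YGL184C, chromosome VII, 154615 to 156012, minus strand) held high Pho4 peaks without an E-box. The Cbf1 replicate 1 list had a low peak, 363 bp upstream with a fold of 1.99 and a percentile of 34.5, and Cbf1 replicate 2 had none. The Pho4 summits lay 348 and 340 bp upstream with folds of 11.9 and 12.2 and percentiles of 93.3 and 92.3. Among Pho4 peaks with no CACGTG within 50 bp of the summit, STR3 ranked 45 of 1612 in replicate 1 and 40 of 1694 in replicate 2. The nearest CACGTG lay 13642.5 and 13634.5 bp from the Pho4 summits, and the promoter held no CACGT, which lay within 50 bp of 22.5% and 23.4% of such Pho4 summits. A pair of TGACTC motifs lay 28.5 to 46.5 bp from the Pho4 summits. That motif was within 50 bp of 4.03% and 4.31% of Pho4 summits without CACGTG.

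The S-adenosylmethionine synthetase genes differed as the permeases did. At SAM2 (YDR502C, chromosome IV, 1453310 to 1454464, minus strand) the Cbf1 summits lay 306 and 314 bp upstream with folds of 3.71 and 6.99 and percentiles of 81.6 and 85.6. The Pho4 summits lay 319 and 334 bp upstream with folds of 5.22 and 8.36 and percentiles of 76.6 and 85.3, so the factors overlapped. The E-box, centred 320.5 bp upstream with a T flank on 1 strand, lay 14.5 and 6.5 bp from the Cbf1 summits and 1.5 and 13.5 bp from the Pho4 summits. It was the only E-box here with an AAACTGTG in its printed window, centred 296.5 bp upstream. At SAM1 (YLR180W, chromosome XII, 515262 to 516410, plus strand) the peaks were low in all 3 lists that reach it, at percentiles of 19.5 in Cbf1 replicate 2 and 29.0 and 5.16 in the Pho4 lists. The promoter holds no CACGTG, and its AAACTGTG, 273.5 bp upstream, lay 215.5 bp or more from the summit of the highest peak in each list. The Cbf1 replicate 2 peak lay wholly inside the divergent neighbour YLR179C. Both Pho4 lists had 2 peaks over the SAM1 promoter, with one summit inside YLR179C and the other 60 and 97 bp upstream of the YLR179C coding start.

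GSH1 (YJL101C, chromosome X, 234320 to 236356, minus strand) was high in all 3 lists that reach it. The Cbf1 replicate 2 summit lay 411 bp upstream with a fold of 20.3 and ranked 40 of 1566, the highest Cbf1 rank among the 9 genes in that list. The Pho4 summits lay 373 and 358 bp upstream with folds of 11.6 and 13.8 and ranked 143 of 2005 and 141 of 2190. The E-box centred 364.5 bp upstream has a T flank on 1 strand and lay 46.5 bp from the Cbf1 summit and 8.5 and 6.5 bp from the Pho4 summits. A second E-box, centred 104.5 bp upstream, has no T flank, and the nearest summit was 306.5 bp away for Cbf1 and 268.5 and 253.5 bp away for Pho4. The peak intervals of all 3 lists span this second site too. Each interval has a single summit, so the distances do not show whether the second site is bound. Among all promoter E-boxes without a T flank, a summit lay within 50 bp of 38.2% in Cbf1 replicate 2 and of 81.6% and 85.4% in the Pho4 lists. The divergent neighbour LSB6 starts 496 to 549 bp beyond the summits.

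In total the 9 promoters held 7 CACGTG sites in 5 genes, of which 4 were T-flanked on 1 strand, 2 on both strands and 1 on neither. Each of the 4 sites with 1 T flank had a summit within 50 bp in every list that reaches it. Over all promoter sites of that kind the shares were 55.7% and 61.8% in the Cbf1 lists and 56.8% and 54.6% in the Pho4 lists. Counted by gene, CACGTG lay within 50 bp of a promoter summit at 3 of 6 genes in Cbf1 replicate 1 and at 5 of 9 in each other list. The shares over all genes were 8.41%, 8.55%, 8.7% and 8.4% in the order Cbf1 replicates 1 and 2, Pho4 replicates 1 and 2. Among promoters with a peak, the genes here counted 3 of 5, 5 of 7, 5 of 9 and 5 of 9 in that order, against 27.2%, 30%, 21% and 22.2% of all. With a window of 25 bp the count was 3 in each of the 4 lists, because CYS3 and GSH1 drop out of Cbf1 replicate 2, and CYS3 and SUL2 drop out of the Pho4 lists. CACGTG occurs in 10.8% of all promoters, AAACTGTG in 5.03% (4 of the 9 genes), and TGACTC in 25.7% (6 of the 9).

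The factors were compared by rank at the 4 genes with a promoter peak in all 4 lists, within the region that all lists reach, where rank 1 is the highest fold. The lists hold 920 and 853 peaks there for Cbf1 and 1105 and 941 for Pho4, so a place is not the same share of each list, and ranks as a percentage of list length are given too. CYS3 ranked 66 and 43 for Cbf1 and 388 and 679 for Pho4, with means of 54.5 ± 16.3 and 533.5 ± 206 (SD, n = 2 each). The factors did not overlap, and the difference, Cbf1 minus Pho4, came to -479 places (two-sided exact permutation p = 0.33, adjusted 0.67 over the 4 genes). As a percentage of list length its ranks were 7.17% and 5.04% for Cbf1 and 35.1% and 72.2% for Pho4. An exact permutation p of 0.33 is the smallest that 2 libraries against 2 allow. MUP1 went the other way, with ranks of 859 and 466 for Cbf1 and 273 and 200 for Pho4, means of 662.5 ± 278 and 236.5 ± 51.6 (SD, n = 2 each) and a difference of 426 places (exact permutation p = 0.33, adjusted 0.67). The Cbf1 replicate 2 peak of MUP1 lay wholly inside YGR054W, with a summit 1061 bp upstream, so these ranks are not of 1 site. Without Cbf1 replicate 1 the MUP1 difference was 229.5 places and rested on that peak for Cbf1. A rank of 859 lies past the 853 peaks of the shortest list in the region. As a percentage of list length the MUP1 ranks were 93.4% and 54.6% for Cbf1 and 24.7% and 21.3% for Pho4. CYS4 ranked 119 and 100 for Cbf1 and 133 and 104 for Pho4, and SAM2 ranked 170 and 143 for Cbf1 and 255 and 135 for Pho4. Their differences of -9 and -38.5 places were within the spread between replicates (exact permutation p = 0.67 and 1, adjusted 0.89 and 1). The sign turned at CYS4 without Cbf1 replicate 2 (0.5 places) or Pho4 replicate 1 (5.5 places) and as a percentage of list length (0.78 points), and at SAM2 without Pho4 replicate 1 (21.5 places).

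The Cbf1 peaks over the 5 E-box promoters were wide. Their widths were 1981, 2165 and 2261 bp at CYS3, CYS4 and SAM2 in replicate 1, and 1209, 1063, 937, 1039 and 1340 bp at CYS3, CYS4, SAM2, GSH1 and SUL2 in replicate 2. The Pho4 peaks at the same sites spanned 257 to 601 bp in replicate 1 and 302 to 540 bp in replicate 2. The median width of all peaks was 299 and 304 bp in the Cbf1 lists and 286 and 284.5 bp in the Pho4 lists. At a level of 900 bp, set after the values were seen, such a peak lay over 3 of 6 genes in Cbf1 replicate 1 and 5 of 9 in Cbf1 replicate 2, and over 0 of 9 in both Pho4 lists. Over all genes the shares were 9.97% and 5.48% in the Cbf1 lists and 2.27% and 1.55% in the Pho4 lists. Wide peaks tended to be high peaks, with a median fold percentile of 90.3 and 90.8 in the Cbf1 lists and 78.3 and 76.5 in the Pho4 lists. Their lowest percentiles were 48.4 and 16.3 in the Cbf1 lists and 16.6 and 22.8 in the Pho4 lists. At the 5 E-box promoters the implied summit heights were 157 to 1486 reads for Cbf1 and 34 to 336 reads for Pho4. Whether width follows height was not tested. In replicate 1 the Cbf1 interval covered 80.1% of the CYS3 coding sequence, 84.2% of that of CYS4 and 56.2% of that of SAM2.

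**Figure D3:**
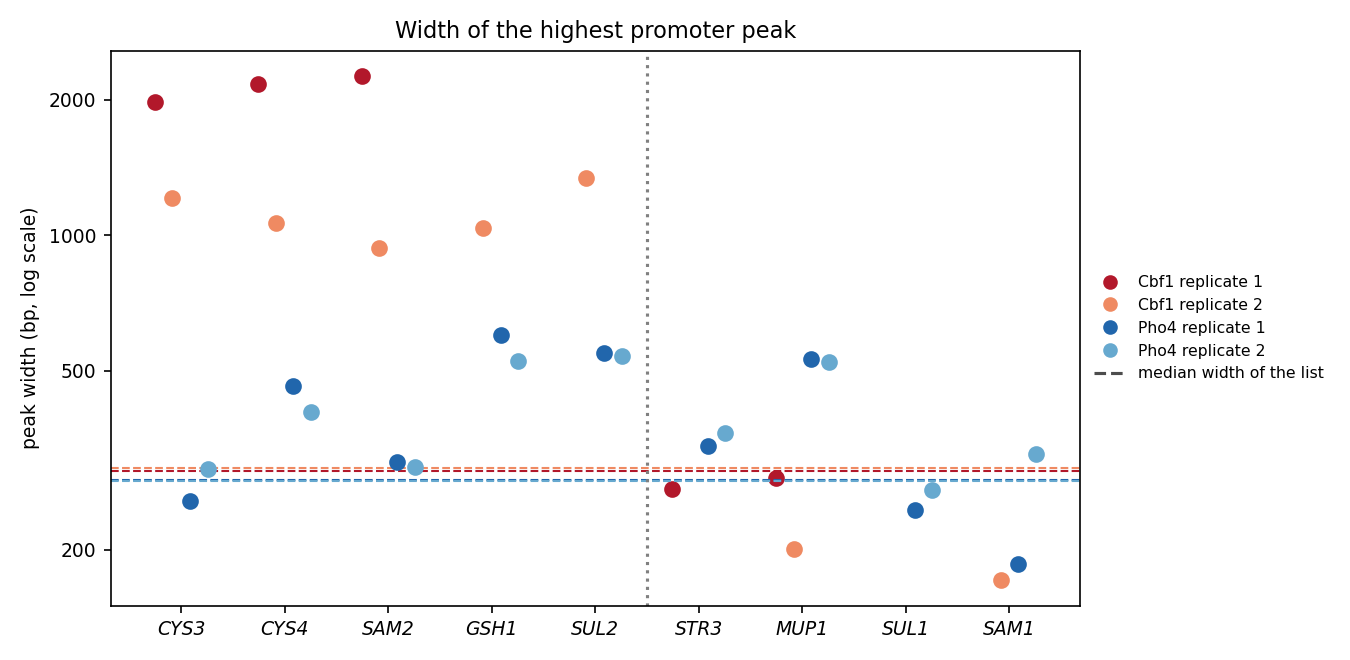
Width in bp (log scale) of the highest promoter peak of each gene, with Cbf1 libraries in red shades, Pho4 libraries in blue shades and dashed lines at the median width of each list. Cbf1 widths at the 5 genes left of the dotted line, which have an E-box in the promoter, are 937 to 2261 bp, and the medians lie between 284.5 and 304 bp.

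Other genes of sulfur metabolism were counted from a list of 34, in 5 groups. Cbf1 had a promoter peak in both lists at 8 of the 12 that both reach, and Pho4 in both lists at 20 of 25. Over all genes the shares were 24.1% for Cbf1 and 33.6% for Pho4. By group, the Cbf1 replicate 2 list had a peak at 5 of 6 genes of sulfate assimilation, 6 of 8 of homocysteine and methionine synthesis, 0 of 2 of glutathione, 4 of 5 of transport and 4 of 4 regulators. The Pho4 replicate 1 list had a peak at 6 of 6, 7 of 8, 1 of 2, 3 of 5 and 4 of 4 in the same order, the glutathione gene being the transporter gene OPT1. In Pho4 replicate 2, which reaches all 34, the counts were 7 of 8, 8 of 10, 1 of 4, 5 of 6 and 5 of 6. Cbf1 replicate 1 reaches no listed glutathione gene, and in the other groups had 1 of 2, 4 of 5, 1 of 2 and 3 of 3. Over all genes the shares were 31% and 28.5% in Cbf1 replicates 1 and 2 and 41.5% and 37.8% in Pho4 replicates 1 and 2. Among these genes too, those with CACGTG stood above those without it in Cbf1 replicate 2, where 17 of 18 had a peak and 14 were in the upper 15% of the list, against 2 of 7 and 0. In Cbf1 replicate 1 the counts were 7 of 9 and 7, against 2 of 3 and 0. In Pho4 replicate 1 they were 18 of 18 and 7, against 3 of 7 and 0. In Pho4 replicate 2 they were 21 of 22 and 6, against 5 of 12 and 0. Of all promoters with CACGTG, 73.7% and 78.4% had a peak in the Cbf1 lists and 82.7% and 81.9% in the Pho4 lists. Without CACGTG the shares were 25.9% and 22.3% for Cbf1 and 36.4% and 32.5% for Pho4. STR3, with no CACGTG, was in the upper 15% of both Pho4 lists, while none of the listed genes without CACGTG was in the upper 15% of either. The level was chosen after the values were seen, and in Pho4 replicate 2 AGP3, with no CACGTG, fell just short at a percentile of 84.521. In Pho4 replicate 1 AGP3 was at 32.968, and the highest listed gene without CACGTG was HOM2 at 76.06. STR3 was at 93.3 and 92.3 in Pho4 replicates 1 and 2.

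**Figure D4:**
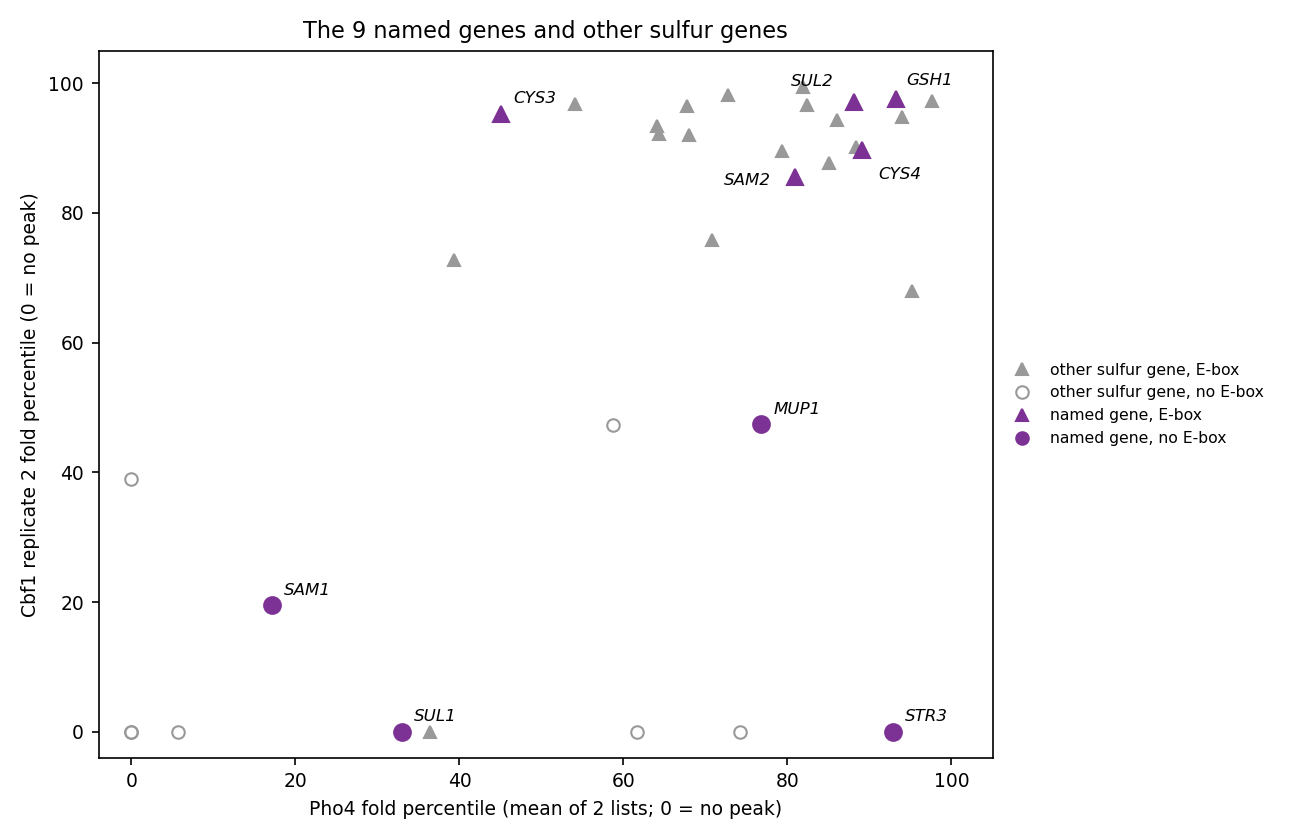
Fold percentile of the highest promoter peak in Cbf1 replicate 2 (vertical axis) against the mean of the Pho4 lists (horizontal axis), with 0 for no peak, for the 9 genes (purple) and 25 other sulfur genes that these 3 lists reach (grey). Triangles have an E-box in the promoter and circles have none, and STR3 is the point farthest right along the bottom, with no Cbf1 replicate 2 peak and Pho4 percentiles of 93.3 and 92.3.

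Of the 9 genes, CYS3 had the highest mean Cbf1 percentile among those with peaks in both Cbf1 lists. Of the 8 listed sulfur genes that also had peaks in all 4 lists, those nearest to its pattern were MET28, SAH1 and MET32, with mean absolute differences of 7.78, 11.0 and 14.0 percentile points over the 4 libraries. MET28 had percentiles of 96.2 and 96.7 for Cbf1 and 59.7 and 48.5 for Pho4, against 92.9 and 95.3 for Cbf1 and 63.8 and 26.3 for Pho4 at CYS3. With 4 libraries this order is a description only.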

How the data were processed

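Each library came with its own deposited narrowPeak list, with no pooling of replicates. The submitters' processing notes name cutadapt 1.8.1, Bowtie 1.1.2, SAMtools 1.3.1, bedtools, MACS2 2.1.1 and the build sacCer3, which is R64; the caller's settings are not given in the sources used here. Per list, the authors' columns are a fold (ratio, read here as summit height over local background), −log10 p and −log10 q, a score and a summit offset. The authors' score equals −log10 q multiplied by 10 and cut to a whole number in 99.74% to 99.95% of peaks. No peak passed the end of an R64 chromosome. Mitochondrial peaks were left out.

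A promoter was the 1000 bp upstream of the coding start, and a peak counted when it overlapped it by at least 1 bp. A gene counted for a list when its promoter lay before the end of that list. A CACGTG counted at a centre-to-summit distance of at most 50 bp, and motifs were searched on both strands. Summit heights were solved from fold and p as Poisson tails, and 34 of 35 peaks matched within 0.001. Ranks were compared with a two-sided exact permutation test over the 6 assignments of the 4 libraries, with Benjamini-Hochberg adjustment. All 9 genes are named; for likeness, genes of the list of 34 with peaks in the same libraries were ordered by mean absolute difference in percentile. The genes, lists and motifs were chosen with earlier results of these data known, and CTGTGG and CACGT were added after the sequences were seen. Procedures were tested on simulated data. Python 3.11.15, numpy 2.4.6, pandas 2.3.3 and scipy 1.17.1 were used. The sequence is that of S288C, from which W303 may differ at single sites.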

Additional observations from a re-analysis of the deposited data

How the results depend on the processing

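Of 40 counts under other settings, 35 stayed within 1.5 times and 5 moved by more. Of 31 rank differences, 27 kept their sign, though not always their size, and 4 changed sign. When peaks below the median −log10 q of their list were dropped (upper 50% kept), Cbf1 replicate 1 had a peak at 3 genes in place of 5, since the low peaks at STR3 and MUP1 drop out. Under the same filter Cbf1 replicate 2 had a peak at 6 genes in place of 7. Pho4 then had one at 7 genes in replicate 1, 6 in replicate 2 and 6 in both, each in place of 9. With a window of 25 bp, CACGTG lay near a summit at 3 genes in place of 5 in Cbf1 replicate 2 (T-flanked sites alike) and in both Pho4 lists. Leaving out 1 library gave rank differences of -624.5 to -333.5 places at CYS3, -23.5 to 5.5 at CYS4 (0.5 without Cbf1 replicate 2, 5.5 without Pho4 replicate 1), -98.5 to 21.5 at SAM2 (21.5 without Pho4 replicate 1) and 229.5 to 622.5 at MUP1. Ranked by −log10 q, CYS4 differed by -2 places. As a percentage of list length, an alternative chosen after seeing the data, the differences were -47.5 points at CYS3, 0.78 at CYS4, -1.09 at SAM2 and 51.0 at MUP1. The cause was not tested, beyond the unequal list lengths in that alternative. MUP1 has no value when the summit must lie in the promoter. Replicate numbers are shared by the factors, but the deviations of same-numbered libraries correlated at 0.0995 over 338 loci, so they were not taken as pairs; with replicate number as a block the differences were -479, -9, -38.5 and 426 places at CYS3, CYS4, SAM2 and MUP1, and the smallest exact p of 2 pairs is 0.5. The lists hold no signal outside peaks, so a gene without a peak has no value.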

Other observations

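Some promoters held a second, low peak beside the main one. At CYS3, Pho4 replicate 2 had one 686 bp upstream, inside DEP1, with an authors' fold of 2.27 and a percentile of 7.63. At CYS4, Cbf1 replicate 2 had one 743 bp upstream, inside GTO1, with a fold of 1.73 and a percentile of 0.894. At SAM2, Cbf1 replicate 2 had one whose summit lay 106 bp inside the coding sequence, with a fold of 1.90 and a percentile of 5.56. The summits of the last 2 lie within the single wide interval that Cbf1 replicate 1 has at the same gene, so the replicates divide the same stretch differently.

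A shorter core of the Met31 and Met32 motif, CTGTGG, was searched after the sequences were seen, and its matches overlap those of AAACTGTG wherever that is followed by G. It occurs in the promoters of 8 of the 9 genes, the exception being CYS3, and in 27.6% of all promoters. At SUL2 one copy, centred 322.5 bp upstream, lies between the pair of E-boxes. At GSH1 one copy, centred 351.5 bp upstream, lies 59.5 bp from the Cbf1 replicate 2 summit and 21.5 and 6.5 bp from the summits of Pho4 replicates 1 and 2. The SUL1 copy, centred 410.5 bp upstream, lies 6.5 and 30.5 bp from the summits of Pho4 replicates 1 and 2. Within 50 bp of all summits the core occurred at 4.24% and 4.53% in the Cbf1 lists and 4.29% and 4.43% in the Pho4 lists.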
